A study of Homo sapiens with 6 samples.

Results

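Expression of 39 human genes of double-strand break and Fanconi repair was measured in HEK293T, an established line of transformed human embryonic kidney cells. The genes were taken from a list of symbols, each matched through its Ensembl identifier to 1 row of a table of 62700 gene identifiers, and all 39 were found. They comprise 18 genes of homologous recombination, 10 Fanconi genes, 9 end-joining genes and the 2 kinases ATM and ATR. In 3 editor libraries the cells had been transfected by Lipofectamine with a plasmid for SpRY-ABE8e, an adenine base editor whose Cas9 accepts almost any neighbouring motif, along with guides labelled SA and SD of APP exon 17. In 3 GFP libraries they had received a GFP plasmid by the same reagent. All 6 libraries are polyA RNA of 1 cell line without untransfected cells, and the labels do not give the time of harvest or the share of cells that took up a plasmid. The titles number biological replicates without naming separate cultures, so p-values measure only the spread between these libraries.

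A double-strand break can be repaired along several routes. In homologous recombination the MRE11, RAD50 and NBN complex with RBBP8 (CtIP) trims the ends, and BRCA1, BARD1, PALB2 and BRCA2 load a recombinase that copies the sister chromatid, which restricts the route largely to S and G2 phase. In end joining the Ku proteins (XRCC5 and XRCC6) hold the ends, PRKDC (the catalytic subunit of DNA-PK) signals, DCLRE1C (Artemis) trims, and LIG4 with XRCC4 and NHEJ1 seals them. The Fanconi proteins recognise crosslinks between the strands: a core complex adds ubiquitin to FANCD2 and FANCI, and recombination then completes the repair. Base editors of this kind are designed to nick a strand and not to cut both. The design text of the series names base-excision and mismatch repair, and asks more generally about effects on the expression of other genes.

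The libraries held 110519197 to 152625595 counts, and the member with the fewest reads in any library still had 104. Editor libraries 2 and 3 were far closer to each other (chi-square per degree of freedom 3.4 over the tested genes) than the other pairs within groups, which lay between 34.6 and 195.7. A fit with these 2 summed as 1 library called no member either. Of the defining markers, KRT8 and KRT18 were present at 12.2 to 15.3 and 43.9 to 56.6 CPM (counts scaled to a common library total), CDH1 at 7.51 to 10.7 CPM and EPCAM at 1.09 to 2.42 CPM, and KRT19 had 0 reads in 5 libraries and 1 in the last. CDH1 and EPCAM were each higher in all 3 editor than in all 3 GFP libraries, as were 8.63% of all genes tested. Their log2 fold changes were 0.31 and 0.75, with adjusted p-values of 0.529 and 0.491 by edgeR. The 6 mature kidney markers, UMOD and AQP2 among them, had at most 18 reads per library, the 4 blood cell markers at most 6 and the 3 endothelial markers at most 16. Of the 6 fibroblast markers COL1A1 stood at 17.6 to 22.1, COL3A1 at 13.0 to 17.7 and LUM at 1.58 to 3.04 CPM. PDGFRB stood at 0.217 to 0.534 and DCN at 0.128 to 0.226 CPM, and COL1A2 had at most 2 reads per library. The 5 other than COL1A2 were tested, all 5 with a log2 fold change above 0 (median 0.60). Of these 4 had an unadjusted p under 0.05 by edgeR, against 8.68% of all genes, and 0 were called. The part of these markers in the repair results was not tested. Total APP averaged 446 ± 54.3 CPM with the editor and 495 ± 33.3 CPM with GFP (SD over 3 libraries), which does not show whether the exon was edited.

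None of the 39 repair genes was called different between editor and GFP libraries. By edgeR's quasi-likelihood test with Benjamini-Hochberg adjustment over all 20511 genes tested, 0 members had an adjusted p under 0.05 (the smallest was 0.569, for FANCG), where 0.0244% of all genes were called. The 14 alternative fits, DESeq2 and limma-voom included, called 0 members as well. At an unadjusted p under 0.05 there was 1 member, FANCG, by edgeR, by DESeq2 and by limma-voom alike, against 8.68% of all genes by edgeR. FANCG was lower, as were 2.57% of all genes at that p, and 0 members were higher, against 6.1%. Which members passed that p depended on the fit. LIG4 alone passed with library totals (9.04% of all genes) and FANCF alone with the replicate block (7.86%). Among genes with at least 50 reads in 3 libraries 0 members passed (8.19% of all genes). With no low-count filter BARD1, FANCE, FANCF, FANCG and RAD54B passed, 12.8% of the members against 6.91% of all genes. The fit with no filter called 307 genes, against 5 in the main fit. Without editor library 1 there were 4 (FANCF, RAD54B, XRCC4 and XRCC5), against 22.5% of all genes in that fit. The changes were small: 33 of the 39 log2 fold changes lay within 0.2 of 0. The 95% interval lay inside a 1.5-fold change in either direction for 30 members and inside a 2-fold change for 38. The exception was FANCF, whose interval reached 1.16 on the log2 scale. All these intervals count editor libraries 2 and 3 as independent. These 2 lay far closer to each other than the other pairs within groups, so the intervals may be too narrow. In the authors' deposited table, which lists all 39 members, the smallest adjusted p of a member is 0.665.

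**Figure D1:**
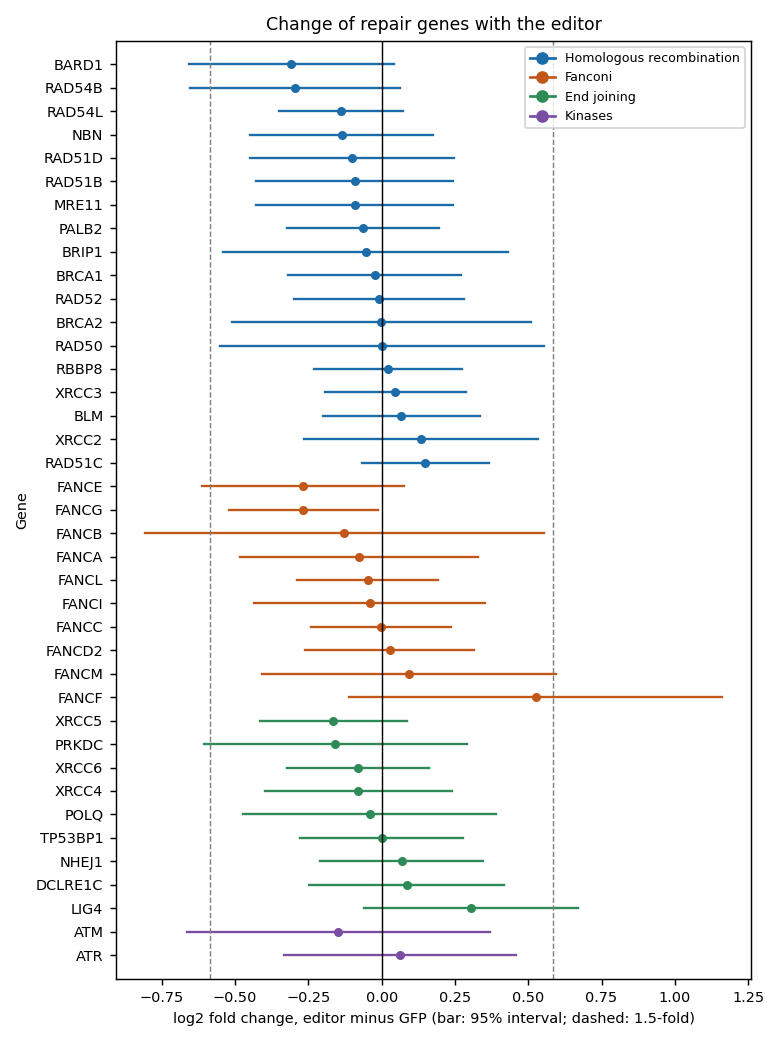
log2 fold change (editor minus GFP) of each of the 39 repair genes on the horizontal axis, with points for the edgeR estimate, bars for the 95% interval and colours for the class. All intervals but that of FANCG cross 0, and 30 of 39 lie inside the dashed lines at a 1.5-fold change.

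The members differed much more in level than in response. Levels were set per length, as CPM per kilobase of annotated exons in the GFP libraries. The 3 subunits of the DNA-PK holoenzyme stood on top: XRCC6 (Ku70) at 258 ± 15.1, XRCC5 (Ku80) at 127 ± 4.58 and PRKDC at 67.9 ± 19.1 CPM per kb (SD, n = 3). The values of these 3 genes did not overlap in the GFP libraries, and together they made up 61.3% of the summed CPM of the members. Next came FANCI at 24.8 ± 3.44 and RBBP8 at 23.3 ± 1.97 CPM per kb, which could not be told apart by their spread. From there the order was nearly continuous: of 38 pairs of neighbours in the order of levels, 31 had overlapping GFP values. At the lower end stood LIG4 at 1.04 ± 0.167, FANCF at 0.365 ± 0.0881 and RAD50 at 0.257 ± 0.0882 CPM per kb. The level of RAD50 is uncertain, because in GENCODE release 29 another gene on the same strand covers 79.7% of its exonic bases. That gene has a row of its own in the count table, with 0 reads in every library. The same holds in part for NHEJ1 (65.4% of its bases) and RAD54B (59.1%, shared with FSBP), and on the opposite strand for XRCC3 (76.7%, shared with KLC1). How reads on shared bases were counted is not given in the sources used here.

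**Figure D2:**
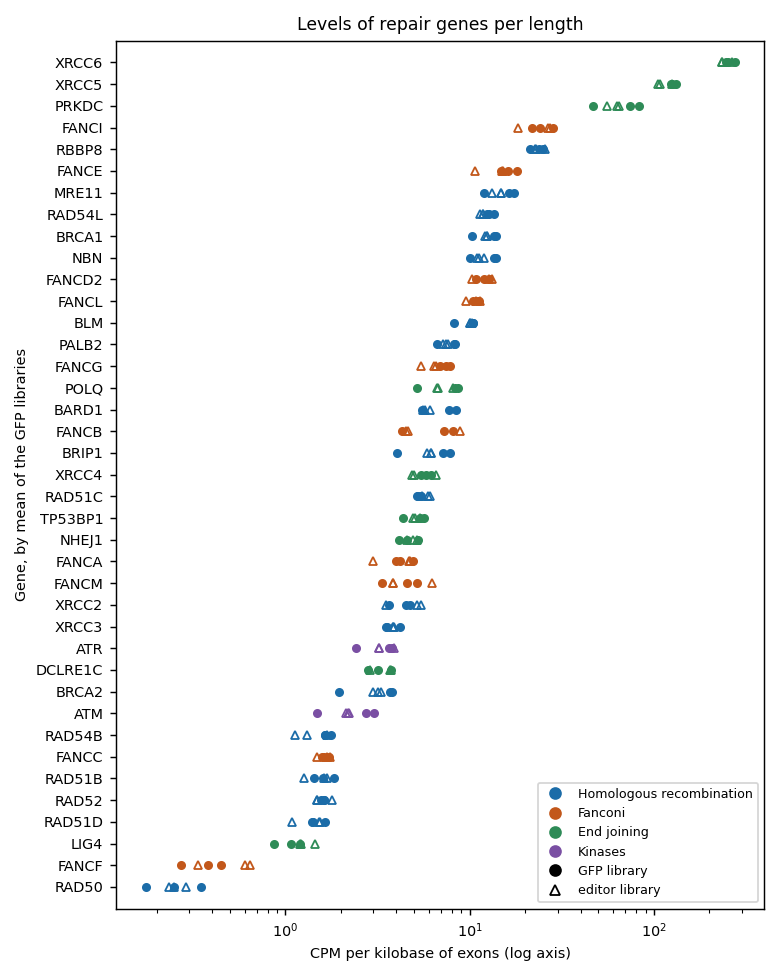
CPM per kilobase of exons on a log axis for each repair gene, with filled circles for the 3 GFP and open triangles for the 3 editor libraries. XRCC6, XRCC5 and PRKDC stand above the other 36 genes in all 6 libraries. In the GFP libraries LIG4, FANCF and RAD50 stand below the others, while LIG4 in editor library 1 (1.45) lies above RAD51D there (1.08).

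ATM had the widest spread of any member among the GFP libraries, with the highest value 2.05 times the lowest. ATM, the kinase activated by double-strand breaks, stood at 51.4, 52.7 and 52.99 CPM in editor libraries 1 to 3 and at 35.6, 72.7 and 65.7 CPM in GFP libraries 1 to 3. The editor values were nearly equal and fell between the low first and the high other GFP libraries (log2 fold change -0.15, SE 0.23, adjusted p = 0.887 by edgeR). Its log2 fold change was -0.42 without GFP library 1 and 0.046 without GFP library 2. ATR, the kinase activated by single-stranded DNA, stood at 48.5, 40.1 and 40.2 CPM with the editor and 30.2, 45.7 and 47.5 CPM with GFP (log2 fold change 0.063, SE 0.17). The groups overlapped, and GFP library 1 was again the lowest. MRE11, the nuclease of the end-sensing complex, stood at 101, 114 and 114 CPM with the editor and 92.3, 134 and 125 CPM with GFP. NBN, its regulatory partner, stood at 73.3, 69.0 and 67.4 CPM against 61.7, 83.7 and 85.1 CPM. Both had all editor values between the first GFP library and the other GFP libraries. RAD50, the ATPase of the complex, stood at 2.29, 2.83 and 2.42 CPM with the editor and 1.70, 3.42 and 2.42 CPM with GFP, overlapping throughout. RBBP8, which starts resection, had the highest level per length of the recombination genes and stood at 130, 115 and 116 CPM with the editor and 108, 121 and 127 CPM with GFP, overlapping throughout (log2 fold change 0.020, SE 0.11).

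The BRCA genes followed the same order among libraries. BRCA2, which loads the recombinase onto DNA, stood at 36.5, 38.999 and 40.5 CPM in the editor libraries and at 23.9, 46.8 and 45.4 CPM in the GFP libraries. Its group means were 38.7 ± 2.03 and 38.7 ± 12.8 CPM (SD, n = 3 each), so the means were equal and the spread was larger among the controls. BRCA1, the ubiquitin ligase that favours recombination, stood at 110.9, 115 and 114 CPM against 94.7, 127 and 124 CPM (log2 fold change -0.024, SE 0.13). BRIP1, a helicase that binds BRCA1, stood at 47.1, 49.2 and 49.5 CPM against 32.2, 62.2 and 56.99 CPM. PALB2, the link between BRCA1 and BRCA2, averaged 35.2 ± 1.08 CPM with the editor and 36.8 ± 4.38 CPM with GFP. BARD1, the partner of BRCA1, had the lowest log2 fold change of the 39, -0.31, with an SE of 0.15 and an adjusted p of 0.609 by edgeR. Its values were 37.2, 34.0 and 34.6 CPM with the editor and 33.5, 51.1 and 46.6 CPM with GFP, so all editor values lay below GFP libraries 2 and 3 and above GFP library 1.

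The paralogs of the recombinase gave mixed directions. RAD51C stood at 33.3, 36.2 and 37.1 CPM with the editor and 32.9, 31.6 and 31.5 CPM with GFP, higher in all 3 editor libraries (log2 fold change 0.15, SE 0.096, adjusted p = 0.678 by edgeR). XRCC2 averaged 22.9 ± 5.002 and 20.9 ± 2.78 CPM, XRCC3 28.9 ± 0.0763 and 28.0 ± 2.82 CPM, RAD51D 15.6 ± 2.90 and 16.7 ± 1.49 CPM, and RAD51B 11.4 ± 1.65 and 12.1 ± 1.51 CPM in editor and GFP libraries. All of these overlapped between groups. RAD54L, a translocase that remodels DNA during strand exchange, stood at 38.0, 36.8 and 37.9 CPM with the editor and 43.4, 39.7 and 40.9 CPM with GFP, lower in all 3 editor libraries (log2 fold change -0.14, SE 0.093, adjusted p = 0.692 by edgeR). Its relative RAD54B stood at 8.88, 5.96 and 6.94 CPM against 8.66, 9.35 and 8.69 CPM (log2 fold change -0.30, SE 0.16). Here editor library 1 was within the GFP range and the other editor libraries below it. Without editor library 1 the adjusted p was 0.0794 by edgeR, the smallest of any member in any fit. The editor group of that fit was libraries 2 and 3, which lay far closer to each other than the other pairs within groups. That fit called 213 of 21265 genes (1%), against 5 of 20511 in the main fit, so its p-values may be too small. RAD52, which anneals single strands, averaged 6.66 ± 0.752 and 6.70 ± 0.123 CPM, and BLM, the helicase that dissolves crossed strands, 67.6 ± 1.08 and 64.5 ± 8.34 CPM.

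The Fanconi genes were split within the editor group. FANCG, a core complex subunit, stood at 19.8, 23.2 and 23.6 CPM with the editor and 28.3, 27.0 and 24.9 CPM with GFP, lower in all 3 editor libraries. The edgeR estimate was a log2 fold change of -0.27 with an SE of 0.11, a 95% interval from -0.52 to -0.013 and an adjusted p of 0.569. FANCE, which joins the core complex to FANCD2, stood at 28.7, 40.4 and 40.7 CPM against 43.5, 48.7 and 40.0 CPM (log2 fold change -0.27, SE 0.15), where editor library 1 alone lay below the GFP range. FANCA, the subunit most often mutated in Fanconi anaemia, stood at 29.2, 45.6 and 46.2 CPM against 40.6, 48.0 and 38.9 CPM, again with editor library 1 the lowest. FANCF, an adaptor of the core complex with a single exon, had few reads and stood at 0.984, 1.88 and 1.77 CPM with the editor and 0.800, 1.32 and 1.12 CPM with GFP. Its log2 fold change of 0.52 (SE 0.28, 95% interval -0.11 to 1.16) was the highest of the members and the least precise but 1, and the groups overlapped through editor library 1. FANCL, the ubiquitin ligase subunit, stood at 22.9, 27.3 and 26.1 CPM against 26.7, 25.3 and 26.9 CPM, and FANCC at a mean of 21.0 CPM in both groups.

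FANCB and FANCM went the other way in editor library 1. FANCB, a core complex subunit on the X chromosome, stood at 31.7, 16.7 and 16.2 CPM with the editor and 15.4, 26.1 and 29.1 CPM with GFP. FANCM, a translocase that anchors the core complex on DNA, stood at 52.8, 32.4 and 32.7 CPM with the editor and 28.3, 38.5 and 43.6 CPM with GFP. Editor library 1 was thus 1.92 times editor libraries 2 and 3 for FANCB and 1.62 times for FANCM, larger than any difference between the group means. FANCI and FANCD2, the pair that receives ubiquitin, were lower in editor library 1 than in the other editor libraries: FANCI stood at 142, 207 and 212 CPM against 168, 221 and 188 CPM with GFP, and FANCD2 at 86.2, 107 and 110 CPM against 90.7, 107 and 100.2 CPM. Over the 10 Fanconi genes, 8 were lower in editor library 1 than in the mean of the other editor libraries (median log2 difference -0.29). This was so for 10 of 18 recombination genes (median -0.057) and 3 of 9 end-joining genes (median 0.18). A list of 24 G2/M genes also set editor library 1 apart, with a median of 0.20 on the log2 scale from the GFP mean against -0.35 and -0.33 in editor libraries 2 and 3. The part of cell cycle phase in the Fanconi values was not tested.

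**Figure D3:**
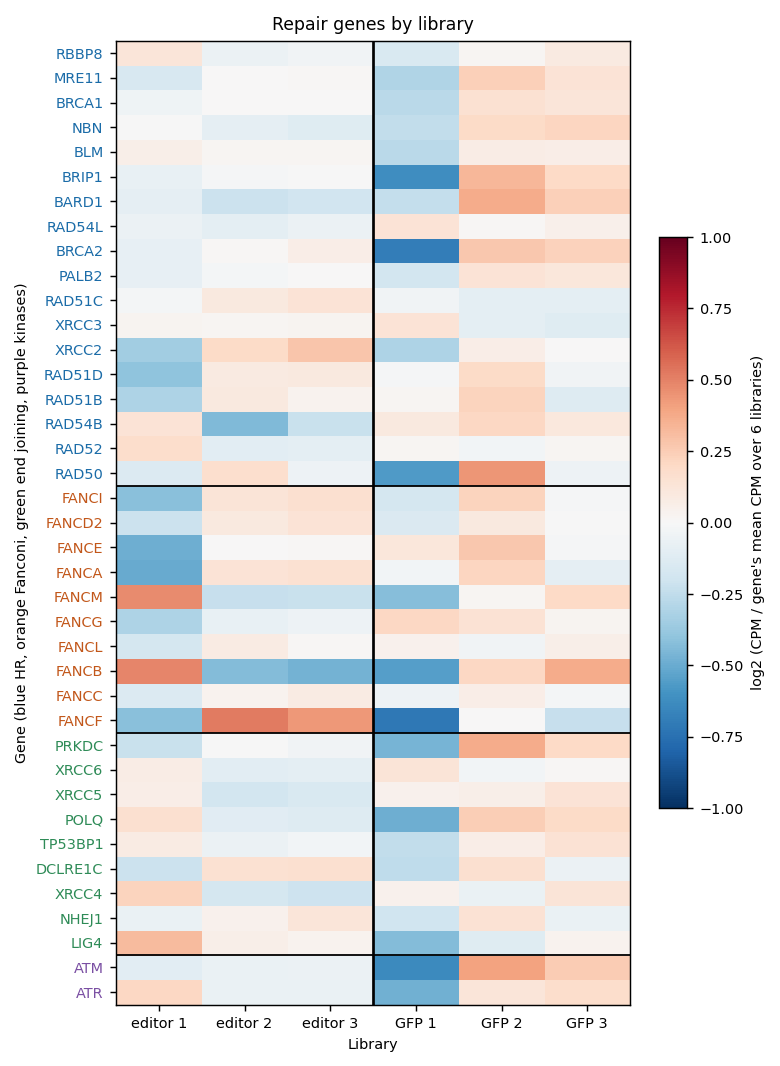
Heat map of the 39 repair genes (rows, by class and then level) in the 6 libraries (columns), coloured by the log2 ratio of CPM to the gene's mean over the 6 libraries. The column of GFP library 1 is the lowest for 21 genes, and editor library 1 differs from editor libraries 2 and 3 in opposite directions for FANCB and FANCM and for the other Fanconi genes.

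The end-joining genes with the highest levels overlapped between the groups and none passed the test. XRCC5 stood at 687, 577 and 589 CPM with the editor and 674, 682 and 721 CPM with GFP (log2 fold change -0.16, SE 0.11, adjusted p = 0.693 by edgeR). XRCC6 stood at 870, 766 and 773 CPM against 905, 809 and 834 CPM (log2 fold change -0.080, SE 0.11). For both Ku genes editor libraries 2 and 3 lay below all GFP libraries and editor library 1 within their range. Over the 6 libraries together, none of the 5 listed XRCC6 pseudogenes reached more than 0.021% of the reads of XRCC6. MRE11P1 had 0.84% of the reads of MRE11. How reads matching more than 1 place were counted is not given, so these shares do not settle the levels of the parent genes. PRKDC stood at 853, 992 and 971 CPM against 718, 1286 and 1138 CPM, with all editor values inside the wide GFP range (log2 fold change -0.16, SE 0.20). LIG4, the ligase of end joining, stood at 6.37, 5.33 and 5.24 CPM with the editor and 3.79, 4.69 and 5.24 CPM with GFP. The lowest editor value (5.241) lay just above the highest GFP value (5.237), and the log2 fold change was 0.30 with an SE of 0.16 and an adjusted p of 0.628 by edgeR (interval -0.060 to 0.67). Its partner XRCC4 averaged 14.7 ± 2.56 CPM with the editor and 15.5 ± 1.05 CPM with GFP, and NHEJ1 (XLF) 15.2 ± 0.966 and 14.5 ± 1.74 CPM. DCLRE1C averaged 21.7 ± 3.09 and 20.5 ± 2.93 CPM. POLQ, the polymerase of the alternative route that uses short homologies, stood at 76.2, 63.3 and 62.6 CPM with the editor and 48.6, 81.1 and 78.1 CPM with GFP. TP53BP1, which protects ends from resection, averaged 66.4 ± 3.34 and 66.5 ± 9.13 CPM.

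The classes were compared by their medians, and the differences between them were not tested. The median log2 fold change was -0.040 for 18 recombination genes, -0.044 for 10 Fanconi genes, -0.041 for 9 end-joining genes and -0.042 for both kinases, and 0.025 for all 20511 genes tested. With BRCA1, BRCA2, PALB2, BRIP1, RAD51C and XRCC2, which also bear Fanconi names, moved to the Fanconi class, the medians were -0.092 for the remaining 12 recombination genes and -0.032 for 16 Fanconi genes. Without editor library 1 the medians were -0.042 for recombination, 0.022 for Fanconi and -0.11 for end-joining genes. Log2 fold changes were below 0 for 12 of 18 recombination, 7 of 10 Fanconi and 6 of 9 end-joining genes. Over all members 26 of 39 were below 0, against 45.7% of all genes, but this count was 17 of 39 when library totals replaced TMM scaling (35.3% of all genes) and 28 of 39 with RLE scaling (49.6%). The members' median minus that of all genes was -0.065 with TMM, -0.065 with library totals and -0.066 with RLE. It was -0.14 without GFP library 1 and -0.0045 without GFP library 2.

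In 4 members the 3 editor and 3 GFP values did not overlap, against 14.8% of all genes tested. These were RAD51C and LIG4 (higher with the editor, as were 8.63% of all genes) and RAD54L and FANCG (lower, as were 6.12%). All 4 kept their sign in all 14 alternative fits, as groups that do not overlap largely ensure, and none was called in any. The 250 bases before their RefSeq transcription start are shown with that of XRCC6, the member with the highest level, so that the composition of the promoters can be compared. The sequences are from RefSeq (GRCh38.p14), on the strand of the gene, 5′ to 3′. Capitals mark exact matches on either strand to the ETS motif CCGGAAG, the CCAAT box (CCAAT) or the GC box (GGGCGG), some of which overlap one another.
RAD51C: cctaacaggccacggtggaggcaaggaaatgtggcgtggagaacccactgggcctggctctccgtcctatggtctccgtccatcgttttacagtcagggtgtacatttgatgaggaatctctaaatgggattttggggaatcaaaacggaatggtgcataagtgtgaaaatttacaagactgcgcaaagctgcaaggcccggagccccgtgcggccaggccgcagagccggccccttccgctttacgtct
RAD54L: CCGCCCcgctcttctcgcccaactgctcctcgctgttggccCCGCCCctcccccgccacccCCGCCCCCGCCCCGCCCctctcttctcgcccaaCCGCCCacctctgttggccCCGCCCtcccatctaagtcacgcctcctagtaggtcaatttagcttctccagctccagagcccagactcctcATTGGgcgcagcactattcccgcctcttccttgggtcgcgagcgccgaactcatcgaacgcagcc
FANCG: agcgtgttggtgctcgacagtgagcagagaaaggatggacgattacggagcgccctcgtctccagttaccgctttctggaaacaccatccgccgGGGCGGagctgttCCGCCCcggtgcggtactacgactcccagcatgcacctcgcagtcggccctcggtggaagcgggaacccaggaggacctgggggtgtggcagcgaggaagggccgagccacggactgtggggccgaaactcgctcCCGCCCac
LIG4: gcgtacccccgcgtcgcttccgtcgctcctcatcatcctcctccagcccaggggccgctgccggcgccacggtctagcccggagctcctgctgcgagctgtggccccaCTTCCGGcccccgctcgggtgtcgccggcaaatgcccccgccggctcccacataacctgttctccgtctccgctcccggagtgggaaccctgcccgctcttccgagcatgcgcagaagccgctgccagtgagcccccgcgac
XRCC6: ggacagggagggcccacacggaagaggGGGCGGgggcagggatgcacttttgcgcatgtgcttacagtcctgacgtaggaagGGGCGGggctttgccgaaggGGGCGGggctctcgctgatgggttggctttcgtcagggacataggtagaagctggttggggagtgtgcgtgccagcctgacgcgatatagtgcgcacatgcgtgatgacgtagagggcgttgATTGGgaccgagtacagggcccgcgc
The windows lie at chr17:58692323-58692572 on the plus strand for RAD51C, chr1:46247438-46247687 on the plus strand for RAD54L and chr9:35079943-35080192 on the minus strand for FANCG. They lie at chr13:108218350-108218599 on the minus strand for LIG4 and chr22:41621045-41621294 on the plus strand for XRCC6. RAD54L held 7 GC boxes and 1 CCAAT box, FANCG 3 GC boxes, XRCC6 3 GC boxes and 1 CCAAT box, LIG4 1 ETS motif and RAD51C none of the motifs. Of 34 members with an entry, 12 held the ETS motif (35.3%, against 8.52% of 35116 promoters), 21 the GC box (61.8% against 42.6%) and 13 the CCAAT box (38.2% against 32.0%). These matches are a description of letters, and binding was not measured. The 35116 promoters are all entries of the source. Each member counts once, by the entry nearest its annotated start, so the shares are not of like units.

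Many of the genes share their start region with a neighbour. In GENCODE release 29, 13 of the 39 members (33.3%) had another protein-coding gene starting on the opposite strand within 1000 nt, against 8.19% of 19922 protein-coding genes. PRKDC and MCM4, a subunit of the replicative helicase, started 2 nt apart. PRKDC had a log2 fold change of -0.16 and MCM4 of -0.17 (SE 0.10, adjusted p = 0.652 by edgeR). XRCC6 and DESI1, 23 nt apart, stood at -0.080 and 0.22. LIG4 and ABHD13, 11 nt apart, stood at 0.30 and 0.055, and PALB2 and DCTN5, 82 nt apart, at -0.064 and 0.12. RAD51C and TEX14, 518 nt apart, both lay above 0, at 0.15 and 0.17. Of the 13 partners 11 were tested and 0 were called (edgeR, adjusted p under 0.05). At an unadjusted p under 0.05 there was 1 of 11, near the 8.68% of all genes: MAP1A beside TP53BP1, at 0.32 on the log2 scale with an SE of 0.13 and an adjusted p of 0.569 by edgeR.

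The largest common movement of the repair genes was not between editor and GFP but within the GFP group. GFP library 1 held the lowest value of the 6 libraries for 21 of the 39 members, and 31 of 39 were lower there than in the mean of GFP libraries 2 and 3, against 51.8% of the protein-coding genes tested. The median difference was -0.30 on the log2 scale, -0.32 for recombination, -0.30 for end-joining and -0.14 for Fanconi genes, against -0.017 over 14320 protein-coding genes tested. ATM stood at 0.514, BRCA2 at 0.519, BRIP1 at 0.540, RAD50 at 0.582 and PRKDC at 0.592 of the mean of the other GFP libraries. The difference went with exonic length. Over all protein-coding genes its median ran from 0.28 for 1191 genes under 2 kb to 0.13 at 2 to 4 kb, -0.13 at 6 to 8 kb and -0.37 for 1741 genes over 10 kb. The members' medians lay below those of all protein-coding genes in every range they filled. They were 0.0061 at 2 to 4 kb, and -0.21 against -0.025 at 4 to 6 kb. Longer members stood at -0.32 at 6 to 8 kb, -0.47 against -0.23 at 8 to 10 kb and -0.62 over 10 kb. The part of length in the members' values was not tested. The members are long, with a median exonic length of 6326 nt against 5090.5 nt. Across them the difference correlated with log2 length at Pearson r = -0.49 (n = 39), and across the protein-coding genes at r = -0.45 (n = 14320). Genes are not independent, and these points share the same libraries. All 7 members over 10 kb were lower in GFP library 1, against 83.3% of protein-coding genes of that length, as were 4 of 9 between 2 and 4 kb, against 31.7%. No such relation stood out for editor library 1 against the other editor libraries (r = -0.065 over the members). RNA integrity was not given in the labels, and its part in the length relation was not tested.

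**Figure D4:**
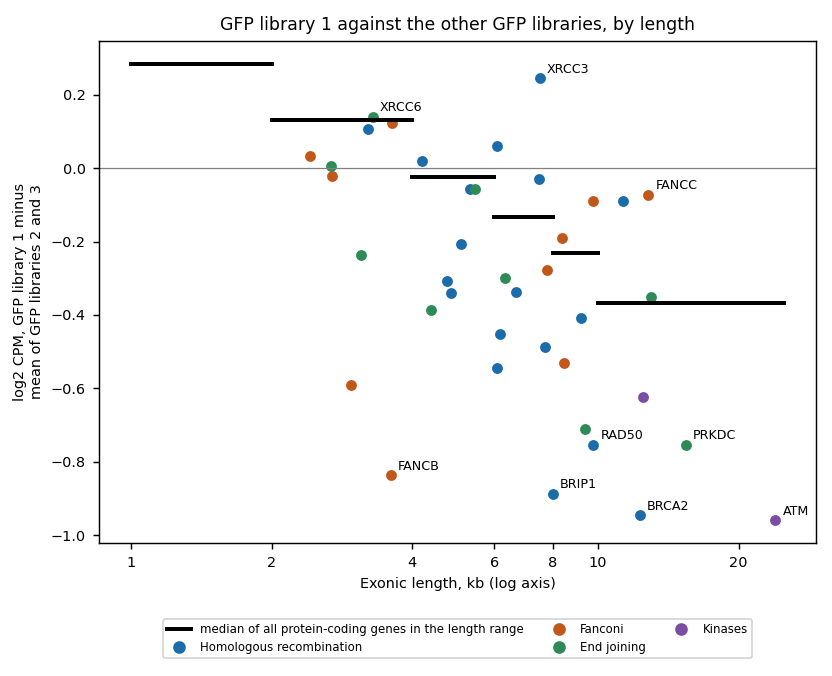
log2 CPM of GFP library 1 minus the mean of GFP libraries 2 and 3, against exonic length on a log axis, with points for the 39 repair genes by class and black bars for the median of all protein-coding genes in each length range. Both fall with length, from 0.28 to -0.37 for the medians, and ATM, BRCA2 and BRIP1 lie lowest.

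The comparison of editor and GFP libraries depended on this library. Without GFP library 1 the log2 fold change was below 0 in 34 of 39 members (median -0.13), and 8 reached an unadjusted p under 0.05 (20.5%, against 11.9% of all genes in that fit). These were ATM, BARD1, BRCA2, BRIP1, MRE11, NBN, PALB2 and PRKDC. Without GFP library 2, 14 members were below 0, the median was 0.031 and 0 reached an unadjusted p under 0.05. Neither fit called a member after adjustment over all genes by edgeR.

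Of 56 listed genes that are not members 55 were tested, with 36 below 0 and 19 above and a median log2 fold change of -0.049. None was called by edgeR, and 4 had an unadjusted p under 0.05, all lower with the editor. A count of 4 in 55 is no larger a share than the 8.68% of all genes at that p in either direction. It is a larger share than the 2.57% of all genes that were lower at that p, and this difference was not tested. The groups did not overlap in 6 of the 55, all lower (14.8% of all genes in either direction, 6.12% lower). SFR1, a partner of the recombinase, stood at 11.4, 11.6 and 12.3 CPM with the editor and 14.6, 15.3 and 15.4 CPM with GFP (log2 fold change -0.36, SE 0.10, adjusted p = 0.471 by edgeR). ABRAXAS1, the scaffold of a BRCA1 complex, stood at 46.1, 43.5 and 45.1 CPM against 51.1, 64.1 and 64.5 CPM (log2 fold change -0.41, SE 0.12). CHEK1, the checkpoint kinase below ATR, stood at 131, 129 and 130 CPM against 139, 173 and 164 CPM (log2 fold change -0.29, SE 0.11). C1orf112 (FIRRM) stood at 32.5, 27.9 and 29.1 CPM against 33.7, 37.4 and 35.9 CPM (log2 fold change -0.26, SE 0.10). In these 4 genes the editor values lay below all GFP values. Their log2 fold changes kept their sign over the libraries left out, as groups that do not overlap largely ensure.

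Beside the repair genes stand the cell cycle and p53 lists. Of 29 S-phase genes 23 had a log2 fold change below 0 (median -0.11), and of 24 G2/M genes 20 (median -0.16). Over all genes 45.7% were below 0, and 0 were called in either list by edgeR. At an unadjusted p under 0.05 there were 4 S-phase genes, 3 lower and 1 higher, and 0 G2/M genes, against 8.68% of all genes. The groups did not overlap in 11 S-phase genes, 10 lower and 1 higher, and in 0 G2/M genes. This was so for 14.8% of all genes, 6.12% lower and 8.63% higher. The S-phase median lay at -0.12, -0.093 and -0.091 from the GFP mean in editor libraries 1 to 3 and within -0.020 to 0.017 in the GFP libraries. The G2/M median lay at 0.20, -0.35 and -0.33 in editor libraries 1 to 3, so editor library 1 went the other way. It lay within -0.067 to 0.11 in the GFP libraries. The members' median lay at -0.054, -0.0054 and -0.0085 in the editor libraries and at -0.20, 0.14 and 0.081 in GFP libraries 1 to 3. The editor medians thus lay inside the range of the GFP medians, but only through GFP library 1. All 3 lay below the medians of GFP libraries 2 and 3. Of 20 p53 target genes 13 were below 0 (median -0.021), against 45.7% of all genes, and 0 were called by edgeR. At an unadjusted p under 0.05 there were 0, against 8.68% of all genes. The groups did not overlap in 3, 2 lower and 1 higher, against 14.8% of all genes. Whether p53 targets can respond to DNA damage in this line was not tested.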

How the data were processed

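The deposited values are raw read counts of each gene in each library, and columns were matched to libraries by name. Per the submitters' processing notes, the tools were HISAT2, featureCounts and limma. Build, annotation release and strand setting: not given in the sources used here. A comparison table deposited by the authors, read from its first 15273 rows, gives log2 fold changes and p-values.

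The main test was edgeR 4.0.16, run in R 4.3.3 (TMM scaling, default expression filter, quasi-likelihood F-test, editor minus GFP), which left 20511 genes. CPM use TMM-scaled library sizes, with a prior count of 2 on the log2 scale. Standard errors are the log2 fold change over the square root of F. The threshold was an adjusted p of 0.05. With 3 libraries in each group, exact permutation gives no p under 0.1. Lengths and positions come from GENCODE release 29 (GRCh38), matched by identifier, as all annotated exons merged.

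Alternatives used limma 3.58.1 (voom) and DESeq2 1.42.0, other scalings and filters, the replicate number as a block, and each library left out. Members, lists and rules were chosen with earlier results of these data known, and the fit with editor libraries 2 and 3 summed was chosen after seeing the data. Per-library values were given for the 4 smallest p and the highest and lowest level of each class and for both kinases. Others given this way, BRCA2 among them, were chosen after their values were seen. Library sizes and the spread between libraries set the precision.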

Additional observations from a re-analysis of the deposited data

How the results depend on the processing

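No setting called a repair gene. The medians of the members and of each class moved by less than the spread between replicates in every setting. That spread includes the libraries left out, so this comparison could hardly show a move there. The members' median was -0.13 without GFP library 1 and 0.031 without GFP library 2. Over all genes, 5 higher and 0 lower calls became 178 and 129 with no filter on low counts, 3 higher with limma-voom, 47 and 32 with DESeq2, 1 higher at an adjusted p of 0.01, and 1 to 159 higher and 0 to 54 lower over the libraries left out. With the replicate block 1 higher call was left. The deviations of libraries sharing a replicate number correlated at -0.048, 0.173 and -0.237. Each deviation was from the group's mean over 3 libraries, so the 3 correlations are linked. They cannot decide whether the libraries were paired. Of the 39 members 14 kept their sign in all 14 fits and 25 changed it in at least 1, none of them called. With RLE scaling the log2 fold change had the other sign for RBBP8 (-0.00070) and RAD50 (-0.021). With library totals the log2 fold change had the other sign for BRIP1 (0.0054), BRCA1 (0.032), RAD52 (0.038), BRCA2 (0.061), FANCL (0.0089), FANCI (0.023), FANCC (0.055), POLQ (0.012) and TP53BP1 (0.053). With no low-count filter the log2 fold change had the other sign for XRCC3 (-0.0067), RBBP8 (-0.033), RAD50 (-0.056) and FANCD2 (-0.029). With at least 50 reads in 3 libraries the log2 fold change had the other sign for RAD52 (0.0017), BRCA2 (0.014), FANCC (0.012) and TP53BP1 (0.012). With DESeq2 the log2 fold change had the other sign for RBBP8 (-0.00072) and RAD50 (-0.021). With limma-voom the log2 fold change had the other sign for BRIP1 (0.0014), BRCA2 (0.061) and TP53BP1 (0.0078). With the replicate block the log2 fold change had the other sign for BRCA2 (0.058) and TP53BP1 (0.0073). With editor libraries 2 and 3 summed (chosen after seeing the data) the log2 fold change had the other sign for RAD52 (0.034), RAD50 (-0.038), FANCB (0.030), FANCD2 (-0.028), POLQ (0.0038) and TP53BP1 (0.019). Over the libraries left out the log2 fold change ran from -0.42 to 0.046 for ATM, from -0.13 to 0.16 for ATR, from -0.051 to 0.12 for BLM, from -0.16 to 0.048 for BRCA1, from -0.27 to 0.15 for BRCA2, from -0.31 to 0.12 for BRIP1, from -0.026 to 0.19 for DCLRE1C, from -0.19 to 0.088 for FANCA, from -0.53 to 0.042 for FANCB, from -0.047 to 0.041 for FANCC, from -0.050 to 0.11 for FANCD2, from -0.14 to 0.10 for FANCI and from -0.10 to 0.0026 for FANCL. Over the libraries left out the log2 fold change ran from -0.20 to 0.22 for FANCM, from -0.25 to 0.013 for MRE11, from -0.023 to 0.16 for NHEJ1, from -0.26 to 0.086 for POLQ, from -0.38 to 0.014 for PRKDC, from -0.23 to 0.28 for RAD50, from -0.19 to 0.0047 for RAD51B, from -0.18 to 0.024 for RAD51D, from -0.13 to 0.038 for RAD52, from -0.060 to 0.059 for RBBP8, from -0.12 to 0.063 for TP53BP1 and from -0.014 to 0.12 for XRCC3. The causes of these sign changes were not tested. The median SE of the members was 0.15, and 30 of 39 intervals lay inside a 1.5-fold change, with editor libraries 2 and 3 counted as independent.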
